A study of Mus musculus with 25 samples.

Results

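The miR-30 family is a group of microRNAs that share the same seed. In the deposited table its members are 6 hairpin precursors, taken by name from the rows of the table: mmu-mir-30a, mmu-mir-30b, mmu-mir-30c-1, mmu-mir-30c-2, mmu-mir-30d and mmu-mir-30e, 6 of 1193 precursors (the species prefix is left out below). Each library came from a hemisphere of the brain of a male mouse of the inbred strain C57BL/6. The mice were 2, 9, 15, 24 or 30 months old, with 5 libraries per age and 25 in all. No treatment or altered allele is named in the labels, so the groups differ by age alone as far as the labels go. The titles give each library its own animal number, and the age groups were compared to follow microRNA levels through adult life and old age.

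A microRNA is cut from its hairpin by the nucleases Drosha and Dicer and loaded into an Argonaute protein, which it guides to messenger RNAs that pair with the seed, bases 2 to 8 counted from the 5′ end. Because the miR-30 members carry 1 seed, they can bind many of the same messenger RNAs, and their 3′ portions differ. The family is expressed in many tissues, brain included, and is known to repress targets such as Becn1, an autophagy gene, and Bdnf, a neurotrophin gene. A hemisphere holds neurons, glia and vessels, and no cell type was isolated.

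The mature sequences are shown because the seed defines the family and because identical or near-identical arms bear on how reads can be shared between rows. RefSeq, build GRCm38.p6, held entries for 4 of the 6 members. The 5′ arms, 5′ to 3′ with the seed in capitals, were:
miR-30a-5p: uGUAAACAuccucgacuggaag
miR-30e-5p: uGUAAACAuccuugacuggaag
miR-30c-5p: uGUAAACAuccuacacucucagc
miR-384-5p: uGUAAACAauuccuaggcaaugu
The seed GUAAACA was found in 5 of the 1738 mature entries of the table, 4 of them from the members and the fifth from mir-384, a precursor outside the family by name. Counting positions from the 5′ end, miR-30a-5p and miR-30e-5p differed by the single substitution C13U. miR-30c-5p shared its first 12 bases with miR-30a-5p and matched 17 of the 22 compared. miR-384-5p shared only the first 8 bases and matched 12 of 22. The miR-30c-5p sequence is the same in the hairpins mir-30c-1 and mir-30c-2.

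The 3′ arms carry other seeds, shared within each of these pairs:
miR-30a-3p: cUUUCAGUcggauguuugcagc
miR-30e-3p: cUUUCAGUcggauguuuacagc
miR-30c-1-3p: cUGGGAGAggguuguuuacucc
miR-30c-2-3p: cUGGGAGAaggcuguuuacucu
miR-30a-3p and miR-30e-3p differed by G18A. The 3′ arms of the 30c copies differed by G9A, U12C and C22U, so only this arm can tell the copies apart. Counts were deposited per hairpin with both arms together, and the values below do not separate the arms.

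In the GENCODE M21 annotation of GRCm38 the 6 hairpins lie as 3 neighbouring pairs. mir-30a (chr1:23272269-23272339, plus strand) lies 19.361 kb from mir-30c-2 (chr1:23291701-23291784, plus strand), which is in an exon of the lincRNA Gm27028. mir-30e (chr4:120772606-120772697, minus strand) and mir-30c-1 (chr4:120769534-120769622, minus strand) are 2983 bases apart, both within an intron of Nfyc, which encodes a subunit of the NF-Y transcription factor. mir-30d (chr15:68341208-68341289, minus strand) and mir-30b (chr15:68337415-68337510, minus strand) are 3697 bases apart and overlap exons of the noncoding transcripts Gm20732 and Gm26621. The hairpin mir-30f is annotated on the plus strand at exactly the coordinates of mir-30e, and mir-384 lies on chromosome X (chrX:105344282-105344369, minus strand).

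Libraries held 3.78 to 9.52 M counts (M for mega, median 5.61 M), and a member received from 8785 reads (mir-30b) to 429978 reads (mir-30a) in a library. The deposited column names carry a sequencing lane, and each of the 6 lanes held several ages. The 5 libraries of lane 3, 1 at each age, stood apart for mir-30b and the 30c copies and, less far, for mir-30a and mir-30d, so results are given with and without them. Neuronal and glial markers of the labelled tissue were present: the summed level of the 9 brain precursors, miR-124, miR-9, miR-128, miR-138, miR-219a and miR-338 among them, was 49906 to 58604 CPM (counts scaled to a common library size) at 30 months, against 55285 to 59163 CPM at 2 months. The 5 muscle and liver markers summed to between 115 and 145 CPM at 30 months and between 95.1 and 132 CPM at 2 months. These sums were scaled by library totals alone.

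All 6 members were abundant, and their levels formed steps from mir-30a down to mir-30b. Levels are given as CPM with edgeR's TMM factors applied, except for the sums of marker lists, which use library totals alone. A read covers a whole mature arm, and the matched arms have 22 or 23 bases, so the levels were not divided by hairpin length. mir-30a averaged 50263 ± 3412 CPM over all ages (SD, n = 25) and ranked 5th among the 425 precursors tested, with 5.03% of all counts. It is the member best known for repression of the autophagy gene Becn1. mir-30d followed with 16583 ± 1183 CPM (rank 11), and mir-30e with 8933 ± 444 CPM (rank 25). mir-30c-2 and mir-30c-1 averaged 4666 ± 540 and 4621 ± 521 CPM (ranks 44 and 46). mir-30b was the least abundant, at 2472 ± 317 CPM (rank 64).

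In every one of the 25 libraries mir-30a exceeded mir-30d, mir-30d exceeded mir-30e, mir-30e exceeded mir-30c-2, and mir-30c-1 exceeded mir-30b. These neighbours in the order did not overlap in range over all libraries. The 30c copies did overlap, with mir-30c-2 above mir-30c-1 in 21 of 25 libraries and a ratio of means of 1.01. mir-30a alone made up 57.4% ± 1.88 of the summed level of the member rows, mir-30f left out, and mir-30b 2.83% ± 0.404 (SD, n = 25).

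The order of mir-30d and mir-30e, the family's sum and the shares of it hold only for the rows as counted. The reads of mir-30e and of the antisense hairpin mir-30f were close to equal in every library: mir-30e held between 49.6% and 50.3% of their sum. The RefSeq mir-30f product, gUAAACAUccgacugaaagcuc with its bases 2 to 8 in capitals, is complementary to 19 of the 22 bases of miR-30e-3p and does not have the miR-30 seed. Summed, mir-30e and mir-30f came to 17861 ± 880 CPM (SD, n = 25), which was above mir-30d in 22 of 25 libraries. In the same way mir-30c-1 held between 49.3% and 50.2% of the reads of the 30c copies, and the copies summed to 9287 ± 1060 CPM. How reads with several matches and the strand were handled is not given in the sources used here, so the copies cannot be told apart as separate sources of the same arm.

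The family's summed level stayed in a narrow band across adult life. The 6 rows together averaged 83859 ± 3099 CPM at 2 months, 89095 ± 2903 CPM at 9 months, 90136 ± 3061 CPM at 15 months, 87632 ± 2217 CPM at 24 months and 86968 ± 5137 CPM at 30 months (SD, n = 5 each). Of all counts in a library the family held 8.41% ± 0.450 at 2 months, 8.92% ± 0.177 at 9 months, 8.99% ± 0.298 at 15 months, 8.89% ± 0.262 at 24 months and 8.56% ± 0.421 at 30 months. No test was made of the sum, which leaves out the reads counted to mir-30f (8654 CPM on average at 2 months and 8861 CPM at 30 months). The means of the sum at 9 to 30 months were all above the mean at 2 months, and the lowest library at 15 months (87085 CPM) was above the highest at 2 months (85608 CPM). How many precursors were separate between 15 and 2 months was not counted, and mir-30a made up 57.4% of the sum. At 9, 24 and 30 months the libraries overlapped those at 2 months.

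**Figure D1:**
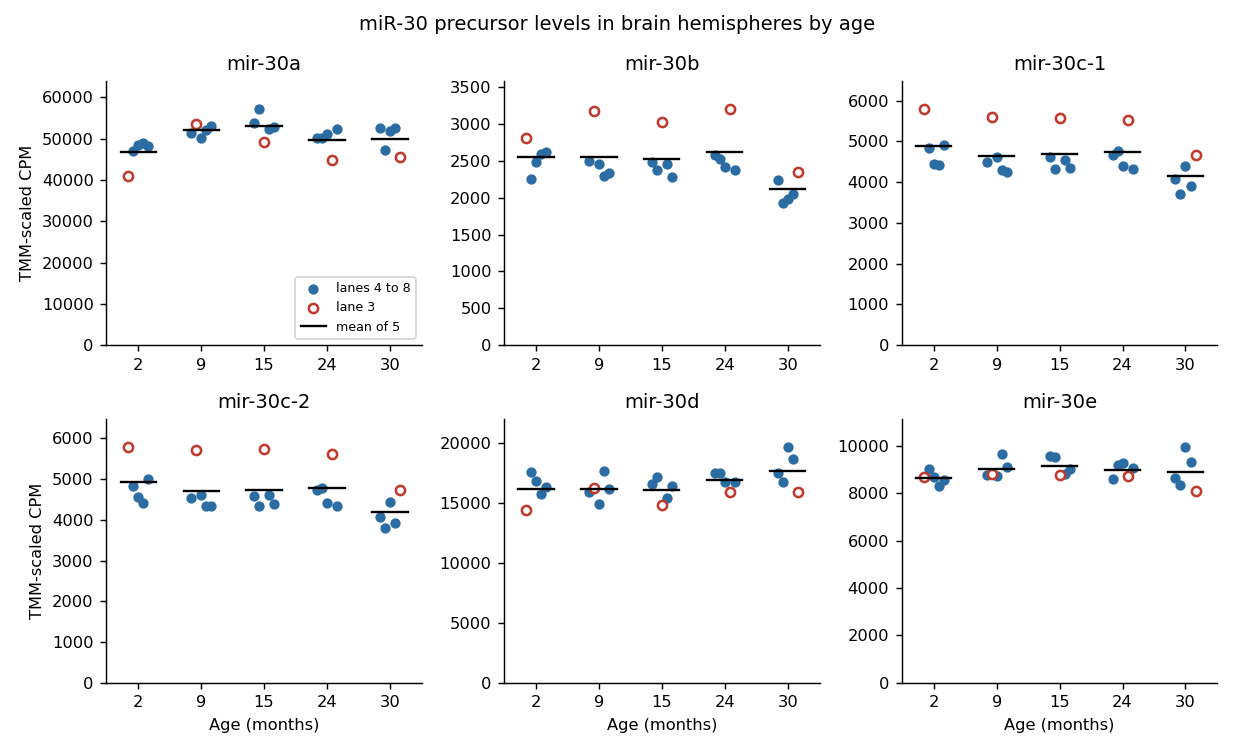
Levels of the 6 miR-30 precursors as TMM-scaled CPM (vertical axes, from 0) against age in months (horizontal axes); each point is 1 library, open red circles are the lane 3 libraries, and lines are means of 5. mir-30b, mir-30c-1 and mir-30c-2 have their highest library of each age in lane 3 and their lowest means at 30 months (2113, 4155 and 4188 CPM).

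Between 30 and 2 months mir-30b and mir-30c-1 fell, passing the threshold of 0.05 on the Benjamini-Hochberg adjusted p of edgeR's quasi-likelihood test. mir-30c-2 narrowly missed the threshold and was not called. mir-30a, mir-30d and mir-30e were not called. In all, 2 of 6 members were called, both lower at 30 months, where 36.9% of the 425 tested precursors were called in either direction and 17.9% were called lower. Over all tested precursors 81 were called higher and 76 lower, or 50 higher and 91 lower with upper-quartile scaling. Over the members the log2 fold change had a median of -0.10, against 0.05 over all tested precursors. In bulk tissue fewer cells of a type and less of the RNA per cell cannot be told apart.

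mir-30b is a member whose microRNA has been studied with miR-30d in human melanoma, where both repress the glycosyltransferase GALNT7. At 2 months it had 2816, 2256, 2485, 2587 and 2622 CPM in the 5 libraries, at 9 months 2496, 3170, 2455, 2301 and 2332 CPM. At 15 months it had 2490.5, 2370.1, 3025, 2460.0 and 2285.5 CPM, and at 24 months 2573, 2527, 2411, 3199 and 2373 CPM. At 30 months it had 2243, 1934, 1985.5, 2049.9 and 2352 CPM. From 2 to 24 months 1 library per age, that of lane 3, was the highest and the rest lay within a narrow band, while 4 of the 5 libraries at 30 months were below every library of the younger ages. The lane 3 library at 30 months, at 2352 CPM, lay within the younger range, so the groups at 30 and 2 months overlapped. None of the 6 members had separate groups in this comparison, against 21.4% of all tested precursors.

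On average mir-30b had 2113 ± 178 CPM at 30 months, against 2553 ± 205 CPM at 2 months (SD, n = 5 each). It fell by 17.2%, and the fitted change was -0.27 ± 0.09 on the log2 scale (SE; adjusted p = 0.0257, edgeR). Its 95% interval ran from -0.47 to -0.08. The call held when any single library was left out, with changes from -0.35 to -0.27.

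mir-30c is known in mouse liver for repressing Mttp, a gene of lipoprotein assembly, and in heart for repressing the connective tissue growth factor gene. mir-30c-1 had 4085, 3720.2, 4399, 3909 and 4660.1 CPM at 30 months, against 5788, 4828, 4453, 4422 and 4912 CPM at 2 months. All but 1 of the 30-month libraries were below all of the 2-month libraries, the exception being that of lane 3. The change was -0.23 ± 0.09 on the log2 scale (SE; adjusted p = 0.0476, edgeR), so that the level fell by 14.9%. The call was lost without any of 3 libraries: -0.21 with adjusted p = 0.0573 without 2-month replicate 1, -0.23 with 0.0513 without 30-month replicate 2, and -0.22 with 0.0628 without 30-month replicate 4.

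mir-30c-2, whose 5′ arm is identical, had 4069, 3798.5, 4438.5, 3911 and 4721 CPM at 30 months, against 5788, 4842, 4563, 4419 and 5012 CPM at 2 months. The values tracked those of mir-30c-1 library by library, and the change was of the same size, -0.23 ± 0.09 on the log2 scale (SE), with adjusted p = 0.0529 (edgeR). The rows can share reads, so their changes are not independent measurements, although only mir-30c-1 was called. With the copies summed to 1 row and the scaling recomputed, the change was -0.27 and adjusted p was 0.0188 (edgeR). The larger change was not particular to summing the copies. mir-30c-2 also changed by -0.27 in the fit that summed only the mir-30e and mir-30f rows. Under the main scaling the copies together averaged 8342 CPM at 30 months, against 9806 CPM at 2 months.

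mir-30d, the neighbour of mir-30b, did not pass the test. It had 17480, 16689, 19640, 18661 and 15870 CPM at 30 months, against 14366, 17565, 16799, 15696 and 16340 CPM at 2 months. The groups overlapped, with the lowest library of each age in lane 3. The change was 0.13 ± 0.06 on the log2 scale (SE; 95% interval 0.00 to 0.25; adjusted p = 0.0955, edgeR). Leaving out 1 library gave 0.05 to 0.13, with the lowest values without 2-month replicate 1 (0.047) and 30-month replicate 3 (0.053), and upper-quartile scaling gave 0.063.

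mir-30a had 52583, 47249, 51889, 52581 and 45516 CPM at 30 months, against 40939, 46957, 48411, 48986 and 48155 CPM at 2 months. Of the 5 libraries at 30 months, 2 lay within the range of those at 2 months and 3 above it. The change of 0.10 ± 0.06 on the log2 scale (SE) had a 95% interval of -0.02 to 0.21 and was not called (adjusted p = 0.176, edgeR). Leaving out 1 library gave 0.011 (without 2-month replicate 1) to 0.10, and upper-quartile scaling gave 0.032. mir-30e, whose 3′ arm is known in human glioma for repressing the NF-kappaB inhibitor gene NFKBIA, had 8664, 8368, 9955, 9329 and 8086 CPM at 30 months. At 2 months it had 8686, 9028, 8708, 8298 and 8567 CPM, a narrow range that the 30-month libraries exceeded on both sides. Its change was 0.04 ± 0.05 on the log2 scale (SE; 95% interval -0.06 to 0.14; adjusted p = 0.583, edgeR), and it was -0.032 with upper-quartile scaling.

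mir-384, known in rat hippocampus for a role of miR-384-5p in the maintenance of long-term potentiation, carries the miR-30 seed on a different body and differed in direction from mir-30b. It had 1284, 1367, 1362, 1295 and 1178 CPM at 30 months, against 791, 1089.9, 1128, 1197.5 and 1096 CPM at 2 months. The 2-month library of lane 3 was far below the other 4, and the groups overlapped by a narrow margin. mir-384 rose by 0.29 ± 0.08 on the log2 scale (SE), or 22.3% (adjusted p = 0.00906, edgeR). Without 2-month replicate 1 the change was 0.16 and the call was lost (adjusted p = 0.0878), and it was also lost without 30-month replicate 2 (0.24, adjusted p = 0.0636) or replicate 3 (0.24, adjusted p = 0.0714).

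**Figure D2:**
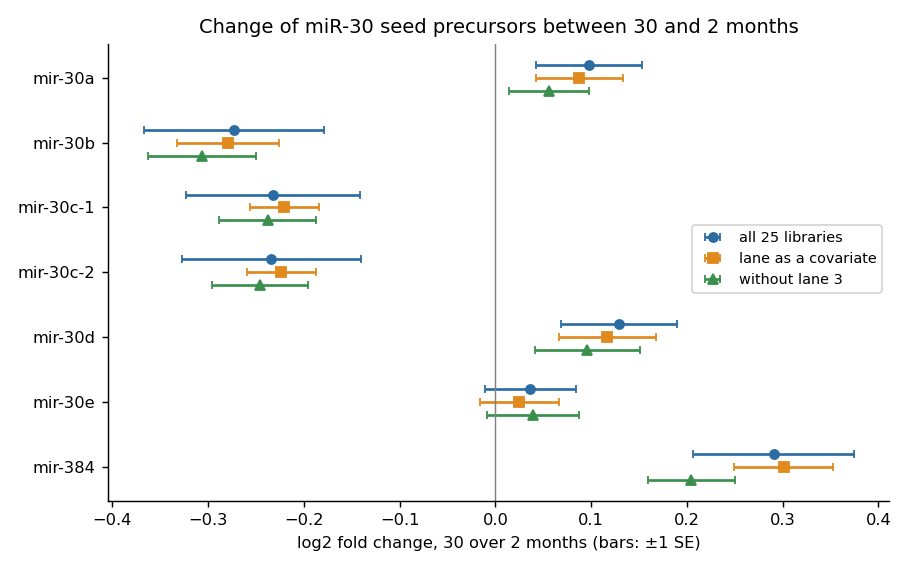
Log2 fold change of the miR-30 members and mir-384, 30 over 2 months (horizontal axis), with bars of 1 SE. Fits were over all 25 libraries, with lane as a covariate, and without the lane 3 libraries. mir-30b, mir-30c-1 and mir-30c-2 lie between -0.31 and -0.22 in all 3 fits, and mir-384 lies between 0.20 and 0.30.

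Lane moved with these levels. Within an age the lane 3 library was the highest of 5 for mir-30b, mir-30c-1 and mir-30c-2 at all 5 ages, and its log2 level exceeded the mean of the other 4 by 0.30, 0.30 and 0.31 on average. For mir-30d and mir-30a the lane 3 library was the lowest at 4 ages, and over all 5 ages it was lower by 0.13 on average for each. At 9 months the lane 3 library was the highest for mir-30a (53527 CPM). mir-30e differed by -0.06. mir-384 was lowest in lane 3 at all 5 ages, by 0.27. These differences were of the size of the age differences, and lane 3 held 1 library of every age.

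With lane as a covariate the SE of the falling members shrank while their changes stayed. mir-30b changed by -0.28 ± 0.05 (adjusted p = 3.337e-04), mir-30c-1 by -0.22 ± 0.04 (adjusted p = 7.361e-05) and mir-30c-2 by -0.22 ± 0.04 (adjusted p = 7.361e-05) on the log2 scale (SE, edgeR). So 3 of 6 members were called in that fit, all lower, where 40.5% of precursors were called. Without lane 3 the same 3 members were called lower, at -0.31 for mir-30b (adjusted p = 2.998e-04), -0.24 for mir-30c-1 (adjusted p = 0.00120) and -0.25 for mir-30c-2 (adjusted p = 8.289e-04), where 38.7% were called. In lanes 4 to 8, mir-30b ranged from 1934 to 2243 CPM at 30 months and from 2256 to 2622 CPM at 2 months. mir-30c-1 ranged from 3720.2 to 4399 CPM at 30 months and from 4422 to 4912 CPM at 2 months. Groups in lanes 4 to 8 were thus separate for these 2 members, and for 32.2% of all tested precursors. mir-384 was called higher with lane as a covariate (0.30, adjusted p = 1.135e-04, edgeR) and without lane 3 (0.20, adjusted p = 0.00162, edgeR). Its groups in lanes 4 to 8 were separate too.

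Each of 4 lanes held a library of both ages. The within-lane difference in log2(CPM + 0.5), 30 minus 2 months, in lanes 3, 5, 6 and 7 was -0.26, -0.15, -0.42 and -0.40 for mir-30b, and -0.31, -0.12, -0.25 and -0.16 for mir-30c-1. It was -0.29, -0.17, -0.22 and -0.18 for mir-30c-2, so the falling members were lower at 30 months in all 4 lanes. The 30c rows can share reads, so their differences are not independent of each other. For mir-30d it was positive in all 4 lanes, at 0.14, 0.06, 0.09 and 0.27. mir-30a had 0.15, 0.12, -0.05 and 0.11, and mir-30e had -0.10, -0.01, 0.01 and 0.22, with both signs. The same libraries entered the fit, so these are a description of it by lane.

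**Figure D3:**
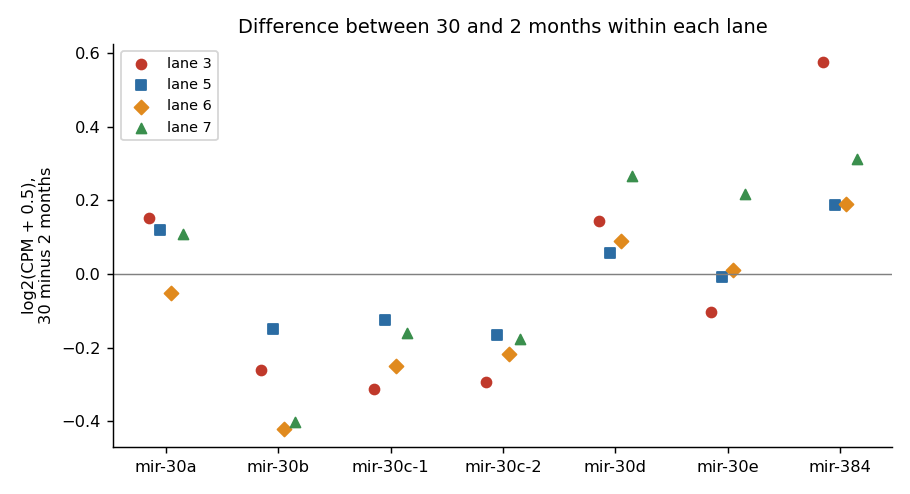
Difference in log2(CPM + 0.5) between the 30-month and the 2-month library of the same lane (vertical axis, 30 minus 2 months) for each precursor, 1 symbol per lane. mir-30b, mir-30c-1 and mir-30c-2 are below 0 in all 4 lanes, and mir-30d and mir-384 are above 0 in all 4.

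The lower level of mir-30b was found in the last interval of the design. Between 30 and 24 months mir-30b fell by 0.31 ± 0.09 on the log2 scale (SE), or 19.2% (adjusted p = 0.0437, edgeR), and its groups did not overlap: the highest library was 2352 CPM at 30 months and the lowest 2373 CPM at 24 months. It was the only member called, 1 of 6, where 8.71% of precursors were called, 2.59% were called lower and 5.41% had separate groups. mir-30c-1 and mir-30c-2 changed by -0.19 each without a call (adjusted p = 0.221 and 0.222, edgeR). The mir-30b call was lost without 24-month replicate 4 (-0.23, adjusted p = 0.152) and without 30-month replicates 2 (-0.29, adjusted p = 0.0583), 3 (-0.30, adjusted p = 0.0707) or 4 (-0.31, adjusted p = 0.0671). With lane as a covariate 3 members were called lower, where 12.9% of precursors were called, and without lane 3 the same 3 were called, where 6.65% were.

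In the earlier intervals no member was called in the fit without lane. Between 9 and 2 months 7.76% of precursors were called, and the largest member change was that of mir-30a, 0.16 ± 0.06 on the log2 scale (SE; adjusted p = 0.0875, edgeR). With lane as a covariate it was called (0.16, adjusted p = 0.0344, edgeR), where 11.8% of precursors were, and without lane 3 it was not (0.11, adjusted p = 0.119). mir-30a had 51378, 53527, 50099, 52030 and 52929 CPM at 9 months, each above all 5 libraries at 2 months, a separation that 5.65% of precursors showed. Between 15 and 9 months 0% of precursors were called by edgeR, with 27 of 425 at an unadjusted p under 0.05, none of them members, and the members changed by -0.01 to 0.03. Between 24 and 15 months 0.235% were called and the members changed by -0.09 to 0.07.

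Tests over all 5 ages called none of the 6 members. For any difference among ages 32.7% of precursors were called by edgeR, and 2 members had an unadjusted p under 0.05, mir-30b (adjusted p = 0.0661) and mir-30a (adjusted p = 0.0809). With lane as a covariate mir-30a (adjusted p = 0.0274), mir-30b (6.440e-04), mir-30c-1 (6.964e-04) and mir-30c-2 (6.440e-04) were called, where 44.7% of precursors were, and without lane 3 the same 4 members were called, where 36.3% were.

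For a linear slope 35.5% were called, and the slopes per 12 months were -0.08 for mir-30b (adjusted p = 0.119), -0.07 for mir-30c-1 (0.110), -0.07 for mir-30c-2 (0.113), 0.05 for mir-30d (0.0568), 0.02 for mir-30a (0.601) and 0.01 for mir-30e (0.705). mir-384 passed both tests over all ages, with a slope of 0.12 per 12 months (adjusted p = 0.00804) and adjusted p = 0.0125 for any difference. With lane as a covariate mir-30b, mir-30c-1 and mir-30c-2 had a called negative slope and mir-30d a called positive one (0.05, adjusted p = 0.0479), where 35.3% of precursors were called. Without lane 3, where 34.4% were called, the same 3 negative slopes were called and that of mir-30d was not.

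Ratios between rows of neighbouring hairpins within a library do not depend on library scaling. mir-30d over mir-30b was 7.79, 8.63, 9.89, 9.10 and 6.75 at 30 months, against 5.10, 7.79, 6.76, 6.07 and 6.23 at 2 months. The lowest ratio of each age was that of lane 3, and the groups overlapped. The mean ratio was 8.43 ± 1.21 at 30 months and 6.39 ± 0.984 at 2 months (SD, n = 5 each), a log2 difference of 0.40 (exact two-sided permutation test, p = 0.0317, adjusted p = 0.0397 over the 3 ratios). At 9, 15 and 24 months the mean was 6.43, 6.44 and 6.53, close to the 2-month value.

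The other ratios are not independent of each other and are not values of a single locus, since the 30c rows split shared reads almost evenly, as do mir-30e and mir-30f. mir-30e over mir-30c-1 was 2.15 ± 0.251 at 30 months and 1.79 ± 0.178 at 2 months (SD, n = 5 each), a log2 difference of 0.26 (exact two-sided permutation test, p = 0.0397, adjusted p = 0.0397). mir-30a over mir-30c-2 was 12.03 ± 1.48 at 30 months and 9.61 ± 1.55 at 2 months (SD, n = 5 each), a log2 difference of 0.33 (exact two-sided permutation test, p = 0.0397, adjusted p = 0.0397). At 9, 15 and 24 months the mean of mir-30e over mir-30c-1 was 1.96, 1.97 and 1.91. For mir-30a over mir-30c-2 it was 11.15, 11.36 and 10.53. Unlike those of mir-30d over mir-30b, these means lay well between the 2-month and 30-month means. The smallest p that all 10 libraries allow is 0.00794. Leaving out any of the 10 libraries other than 30-month replicate 5 ended the calls, with adjusted p from 0.0635 to 0.0794, and without that library adjusted p was 0.0159 for each ratio. Without lane 3 the differences were 0.40, 0.28 and 0.30, each with adjusted p = 0.0286 (permutation test). That value and 0.0159 are the smallest that the libraries left in allow, so they show only that the groups were separate. Within lanes 3, 5, 6 and 7 all 12 differences were positive.

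**Figure D4:**
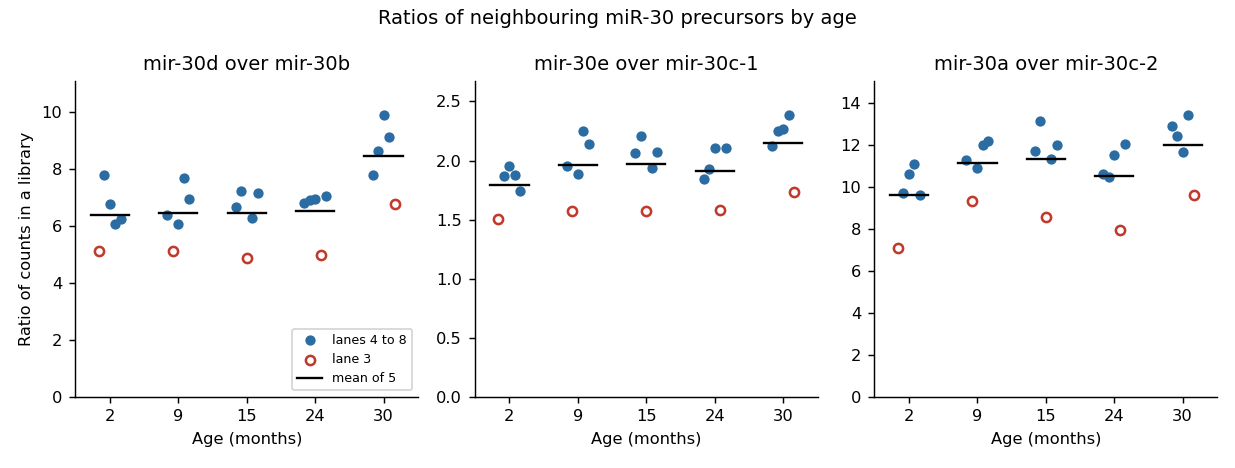
Ratio of counts of neighbouring miR-30 precursors within each library (vertical axes, from 0) against age in months; points are libraries, open red circles those of lane 3, and lines means of 5. The mir-30d over mir-30b means lie between 6.39 and 6.53 at 2 to 24 months and at 8.43 at 30 months.

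Over the 20 libraries outside lane 3, Pearson's r of log2(CPM + 0.5) was -0.57 between mir-30b and its neighbour mir-30d. For the other neighbouring pairs r was 0.01 (mir-30e and mir-30c-1) and -0.25 (mir-30a and mir-30c-2), and the 30c rows do not separate the loci. mir-30b had r = 0.74 with mir-30c-1, and mir-30e had r = 0.60 with mir-30a and r = 0.58 with mir-30d. The r of 0.99 between the 30c copies is that of rows with an identical 5′ arm. All levels share the library totals and the ages, and these values are descriptions.

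Among 14 other abundant precursors that are expressed in many tissues, let-7, miR-26, miR-99, miR-125, miR-181 and others, 4 were called higher and 1 lower at 30 months against 2 months, with a median log2 fold change of 0.11. mir-101a rose by 0.39 ± 0.05 (adjusted p = 1.514e-06) and mir-22 fell by 0.24 ± 0.06 (adjusted p = 0.00289) on the log2 scale (SE, edgeR). The changes of the called members were of the size of that of mir-22.

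Markers of other cell types were measured beside the members. The summed levels of the lists, and the range of mir-126a, are CPM of library totals without TMM factors. The 4 erythroid precursors summed to 2402 to 4998 CPM at 30 months, against 2029 to 3578.5 CPM at 2 months, and 0 of 4 were called by edgeR (1 at an unadjusted p under 0.05; median log2 fold change 0.34). The endothelial precursor mir-126a had 5831 to 6864 CPM at 30 months, against 6117 to 6831 CPM at 2 months. The 6 kidney and epithelial precursors summed to 2204 to 4016 CPM at 30 months, against 2690.5 to 3618 CPM at 2 months, and 1 of 6, mir-194-1, was called lower (-0.28 on the log2 scale). Of the 9 brain precursors 2 were called higher, the oligodendrocyte-enriched mir-219a-2 (0.71 on the log2 scale) and mir-338 (0.54), and 2 lower, mir-128-1 (-0.37) and mir-138-1 (-0.18). Of the 5 muscle and liver precursors 4 were tested and 1, mir-133a-1, was called higher (0.31). mir-1a-1 (-0.50, adjusted p = 0.0536, edgeR), mir-1a-2 (-0.36) and mir-122 (-0.31) were lower without a call, and the median of the list was -0.34. Each list was above 0 in sum in every library of both ages, and the part of cell composition in the miR-30 changes was not tested.

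The precursors whose level was most like the mean log2 level of the 6 members were mir-708 (r = 0.71), mir-381 (0.68), mir-3071 (0.68), mir-411 (0.68) and mir-136 (0.68), out of 319 with at least 10 CPM on average, with Pearson's r over 25 libraries. Without lane 3 (20 libraries) r was 0.64, 0.45, 0.42, 0.76 and 0.39. These points share depth and lane, and the likeness is a description.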

How the data were processed

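Per the labels' protocols, small RNA libraries were made from total RNA of 25 brain hemispheres with the TruSeq kit. The table that the authors deposited holds raw counts for each miRNA hairpin, 5′ and 3′ arms pooled. bcl2fastq (version 1.8.4), Trimmomatic (version 0.36) and SAMtools (version 1.3.1-9) were used per the submitters' processing notes. Not given in the sources used here are the aligner, the counter, the build, whether strand was used and how multiply matching reads were counted. The kit adds no molecular identifiers, so depth (3.78 to 9.52 M, or mega-reads, per library) gives no count of molecules, and precision was taken from the spread between libraries. That spread may be partly technical, although the titles give each library its own animal number. Replicates of 1 age differed beyond sampling noise in all 50 pairs (chi-square per degree of freedom 19.6 to 304), so all were kept.

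Counts were analysed with R 4.3.3 and edgeR 4.0.16. filterByExpr kept 425 of 1193 precursors, all 6 members and mir-384 among them. TMM scaling was applied, and a quasi-likelihood model with 1 mean for each age was fitted to all 25 libraries, so the ages shared 1 estimate of the spread. P-values were Benjamini-Hochberg adjusted over all 425, with a threshold of 0.05. The SE is the log2 fold change divided by the square root of F. The slope used age in months as the only term. Ratios of neighbouring hairpins were tested with exact two-sided permutation tests on log2 ratios (Python 3.11.15, scipy 1.17.1), adjusted over the 3. The steps were tested on simulated data. Alternatives were other scalings, filters, DESeq2 1.42.0, 2 ages only, lane as a covariate, lane 3 left out, copies summed, and each library left out. Another left out 2-month replicates 1 and 2 together. Summing mir-30e with mir-30f was added after seeing the data.

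Besides the 6 members, the text names mir-384 by its seed and the 5 precursors most like the family mean, by a stated rule. mir-30f, mir-22, mir-101a and the single marker precursors were picked after their values were seen. The members and lists were chosen with earlier results of these data known. Replicates were numbered by accession and the numbers pair nothing. Sequences are from RefSeq (GRCm38.p6), positions from GENCODE M21 (GRCm38, 1-based).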

Additional observations from a re-analysis of the deposited data

Results flagged for a closer look

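In groups of 5 libraries, 10 of 45 values tested had an extreme library whose gap to the nearest of the others exceeded Dixon's 95% limit of 0.71 of the range; chance gives about 1 in 20. In all 10 the extreme library was that of lane 3, and the part of lane in them was not tested further than by the fits with lane and without lane 3.

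mir-30b was high in a single library at 9 months (3170 CPM in replicate 2), 15 months (3025 CPM in replicate 3) and 24 months (3199 CPM in replicate 4). mir-30c-1 was high in the same libraries at 9 months (5604.5 CPM) and 15 months (5577 CPM), and mir-30c-2 likewise at 9 months (5725 CPM) and 15 months (5729 CPM). mir-30a was low at 2 months in replicate 1 (40939 CPM) and at 24 months in replicate 4 (44734 CPM). The ratio of mir-30d over mir-30b was low at 24 months in replicate 4, at 4.98.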

How the results depend on the processing

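No paired analysis was possible because the labels give no replicate numbers shared between ages; matching by lane, which the column names give, was run as the fit with lane as a covariate. At 5 libraries per age the interval of a member's change spans 0.2 to 0.4 on the log2 scale, and a miss of the threshold shows no equality. The cause of each change below was not tested, except that leaving out libraries removes data by construction. Values are log2 changes from edgeR fits unless said otherwise.

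mir-30b at 30 against 2 months kept its call in all 12 alternatives other than leaving out a library (-0.35 to -0.27). mir-30c-1 lost its call without a filter (-0.23, adjusted p = 0.0541) and with 2-month replicates 1 and 2 left out together (-0.17, adjusted p = 0.172). In both of these settings mir-30c-2 was not called either, and mir-30b was the only member called. Without each library in turn mir-30c-1 ranged from -0.31 to -0.21. mir-30c-2 gained a call under RLE scaling (-0.26), upper-quartile scaling (-0.31), library totals (-0.26), the stricter filter (-0.25), DESeq2 (-0.26), 2 ages only (-0.27), lane as a covariate (-0.22), no lane 3 (-0.25), summed 30c copies (-0.27) and summed mir-30e and mir-30f (-0.27), and in 22 of 25 refits without a library (-0.32 to -0.21). mir-30a ranged from 0.011 to 0.10 and mir-30d from 0.047 to 0.13 without a library. mir-30e turned to -0.032 under upper-quartile scaling and ranged from -0.043 to 0.036 without a library. mir-384 lost its call with 2 ages only (0.26, adjusted p = 0.0725) and without 2-month replicates 1 and 2 (0.16, adjusted p = 0.122). The median change of all tested precursors was 0.05 with TMM, 0.02 with RLE, -0.02 with upper-quartile scaling and 0.02 with library totals, and calls higher and lower were 81 and 76, 68 and 89, 50 and 91, and 70 and 83 in that order.

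The other signs that turned belong to changes near 0, none of them called. For 9 against 2 months, mir-30b was 0.016 with no filter and 2.648e-04 with lane; mir-30d was -3.342e-04 (RLE), -0.028 (upper-quartile), -0.0013 (totals), -0.0025 (stricter filter) and -0.034 (no lane 3). For 15 against 9 months, upper-quartile scaling and lane as a covariate gave -0.0073 and -0.017 for mir-30c-1, -0.010 and -0.019 for mir-30c-2, and -1.221e-04 and -0.0058 for mir-30e; mir-30d was 2.694e-04 with no filter and 0.016 without lane 3. For 24 against 15 months mir-30e was 0.023 with upper-quartile scaling. For 30 against 24 months mir-30a was -0.0044 (RLE), -0.057 (upper-quartile), -0.035 (totals), -0.017 (no filter) and -0.024 (no lane 3). The slope of mir-30e was -0.0014 (RLE), -0.0059 (upper-quartile) and -0.0014 (DESeq2). Without a library in turn, ranges at 9 against 2 months were -0.076 to 0.037 (mir-30b) and -0.052 to 0.024 (mir-30d). At 15 against 9 months they were -0.074 to 0.078 (mir-30b), -0.048 to 0.087 (mir-30c-1), -0.059 to 0.088 (mir-30c-2) and -0.037 to 0.039 (mir-30d). At 24 against 15 months they were -0.033 to 0.11 (mir-30b), -0.047 to 0.073 (mir-30c-1) and -0.052 to 0.079 (mir-30c-2). At 30 against 24 months they were -0.039 to 0.015 (mir-30a) and -0.37 to -0.23 (mir-30b).

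For any difference among ages, adjusted p fell under 0.05 for mir-30a with lane (0.0274) and without lane 3 (0.0406). For mir-30b it did so with RLE (0.0344), totals (0.0302), no filter (0.0459), lane (6.440e-04) and no lane 3 (0.00165). For mir-30c-1 lane gave 6.964e-04 and no lane 3 gave 0.00982, and for mir-30c-2 they gave 6.440e-04 and 0.00829. Without a library it ranged from 0.0466 to 0.236 (mir-30a) and from 0.0176 to 0.100 (mir-30b). Slopes per 12 months became called with lane and without lane 3 for mir-30b (-0.083 and -0.092), mir-30c-1 (-0.071 and -0.072) and mir-30c-2 (-0.073 and -0.075), and with lane for mir-30d (0.050). Without a library they ranged from -0.016 to 0.025 (mir-30a), -0.11 to -0.069 (mir-30b), -0.092 to -0.061 (mir-30c-1), -0.094 to -0.062 (mir-30c-2), 0.028 to 0.058 (mir-30d) and -0.014 to 0.012 (mir-30e). Leaving out 1 library gave a called slope in 2 refits for mir-30b, 7 for mir-30c-1, 3 for mir-30c-2 and 1 for mir-30d (without 24-month replicate 4: 0.058, adjusted p = 0.0484), and a called difference among ages in 21 for mir-30b and 1 for mir-30a. The ratio differences ranged from 0.32 to 0.48 (mir-30d over mir-30b), 0.20 to 0.34 (mir-30e over mir-30c-1) and 0.22 to 0.41 (mir-30a over mir-30c-2).

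Counts of called precursors at 9 against 2 months were 15 with no filter and 50 with lane, against 33, and 19 to 39 without a library. At 15 against 9 months they were 1 with library totals, against 0, and 0 to 1 without a library. At 24 against 15 months they were 0 with upper-quartile scaling, no filter, the stricter filter and no lane 3, and 2 with lane, against 1, and 0 to 1 without a library. At 30 against 24 months they were 20 with no filter, against 37, and 16 to 53 without a library.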
